A study of Homo sapiens with 12 samples.

Results

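The 9 genes described here encode STAT transcription factors (STAT2, STAT3, STAT4, STAT5A and STAT5B) and inhibitors of cytokine signaling of the SOCS family (SOCS1, SOCS2, SOCS3 and CISH). They were taken by gene symbol from a table of 58288 genes, and each of the 9 symbols matched 1 Ensembl identifier. RNA was sequenced from 12 libraries of HL-60/S4, an established human promyelocytic leukemia cell line. Promyelocytes were undifferentiated cells, and granulocytes were the same cells after 1 µM all-trans retinoic acid (ATRA) for 4 days. Each form was given 16 ng/mL TNF-α, or the same volume of water as vehicle, for 2 h in medium with added calcium. Each of the 4 groups (vehicle-treated promyelocytes, TNF-α treated promyelocytes, vehicle-treated granulocytes and TNF-α treated granulocytes) held 3 libraries. Every library came from a flask of its own, all flasks came from a single seed-lot of this line, and all libraries are labelled as passage 8. The p-values therefore measure the spread between flasks of a single line. Promyelocytes and granulocytes were treated in separate experiments. Cell form and experiment therefore cannot be told apart, either where levels or where responses to TNF-α are compared. Before treatment, undifferentiated cells were also suspended at a higher density than differentiated cells, whose fresh medium contained ATRA.

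Cytokine receptors without kinase activity of their own signal through the JAK kinases, which are bound to the receptor chains. The JAKs phosphorylate the receptor and then the STAT proteins, which pair up, enter the nucleus and bind DNA. Different cytokines use different STATs. STAT2 acts with IRF9 after type I interferon, STAT3 is activated by the interleukin-6 family, interleukin-10 and G-CSF, STAT4 by interleukin-12, and STAT5A and STAT5B by interleukin-3, GM-CSF, erythropoietin and growth hormone. SOCS1, SOCS2, SOCS3 and CISH are themselves transcribed in response to STATs and act back on the receptors and JAKs as a negative feedback loop. TNF-α does not signal through JAK-bound receptors: its receptor activates NF-κB and MAP kinases.

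Promoter sequence is shown for the members in which a motif for STATs, interferon regulatory factors or NF-κB was matched. RefSeq (GRCh38.p14) gave 12 windows of 300 bases for 8 of the 9 members, from 250 bases before to 50 bases after an annotated start, and SOCS2 is named only. Both strands were searched for TTCNNNGAA, the palindrome that dimers of most STATs bind, for the core of the interferon-stimulated response element (TTTC, any 2 bases, TTTC), and for the κB consensus. A match was found in 7.66% of all 35116 RefSeq windows of this length for TTCNNNGAA, in 3.57% for the interferon response core and in 5.91% for the κB consensus. Each motif was matched in 1 of the 12 windows of the members. CISH, a classical STAT5 target gene, held 4 non-overlapping matches of TTCNNNGAA, at 241 to 233, 230 to 222, 129 to 121 and 112 to 104 bases before its start. The distal pair of these falls in an annotated untranslated region, and the proximal pair lies outside any. SOCS1 held a single match of the interferon response core, on the opposite strand, at 113 to 104 bases before its start. STAT5A held a match of the κB consensus at 219 to 210 bases before the most downstream of its 3 RefSeq starts, which lies 951 bases inside the gene as counted, so that the match falls in the 5′ part of longer transcripts. The stretches that hold these matches read as follows, 5′ to 3′ on the strand of the gene, with the matched bases in capitals. A match describes the letters only, and no binding was measured.

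CISH distal pair, chr3:50611991-50612020, minus strand: ccgttTTCCTGGAAagTTCTTGGAAatctg

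CISH proximal pair, chr3:50611832-50611907, minus strand: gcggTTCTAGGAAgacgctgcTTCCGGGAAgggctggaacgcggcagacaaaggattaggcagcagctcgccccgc

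SOCS1, chr16:11256205-11256454, minus strand: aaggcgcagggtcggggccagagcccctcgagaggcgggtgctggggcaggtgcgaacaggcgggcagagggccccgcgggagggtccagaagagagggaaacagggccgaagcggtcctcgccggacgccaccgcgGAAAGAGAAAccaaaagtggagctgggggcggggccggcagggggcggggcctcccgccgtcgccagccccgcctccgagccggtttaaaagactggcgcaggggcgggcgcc

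STAT5A, chr17:42288269-42288298, plus strand: tgggactcccGGGGGACCCCgccgtcgggg

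The genes stand on 5 chromosomes of hg38. STAT5B (chr17:42199168-42276707, minus strand), STAT5A (chr17:42287547-42311943, plus strand) and STAT3 (chr17:42313324-42388568, minus strand) are neighbors, with 10839 bases between STAT5B and STAT5A and 1380 bases between STAT5A and STAT3. SOCS3 lies elsewhere on the same chromosome (chr17:78356778-78360077, minus strand). STAT2 (chr12:56341597-56360155, minus strand) and SOCS2 (chr12:93569814-93583487, plus strand) share chromosome 12. STAT4 is at chr2:191029576-191151596, SOCS1 at chr16:11254405-11256179 and CISH at chr3:50606490-50611831, all on the minus strand. SOCS1 lies within RMI2, SOCS2 and STAT4 overlap an antisense RNA, and CISH overlaps MAPKAPK3 by 312 bases, each on the opposite strand, and counting used the strand. STAT5B overlaps a pair of unnamed genes on its own strand, whose counts were 82 to 177 and 57 to 132 per library, and STAT2 a small nuclear RNA pseudogene with 2 to 26. Of the 3621 stretches of 150 bases in the canonical STAT5A transcript, 280 (7.73%) also occur in the canonical STAT5B transcript. The others have no exact copy there, and how reads of these paralogs mapped was not tested.

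Between 22829189 and 31895061 read pairs per library were counted on genes. At the normalized library sizes used for all levels, 3 counts corresponded to 0.0946 to 0.136 CPM (counts scaled to the size of the library). The NF-κB target NFKBIA rose with TNF-α from 23.3 ± 1.22 to 345 ± 2.17 CPM (SD, n = 3) in promyelocytes and from 13.1 ± 0.565 to 603 ± 30.1 CPM in granulocytes. The summed level of 5 azurophil granule genes, which mark promyelocytes, was 7320 to 8150 CPM in vehicle-treated promyelocytes and 2130 to 2350 CPM in vehicle-treated granulocytes. That of 7 genes listed for the granulocytic form after ATRA was 156 to 164 CPM and 4860 to 5140 CPM, respectively, and the libraries followed their labels. Lists of erythroid, epithelial and fibroblast genes summed to at most 1.31 CPM in any library. B-cell genes summed to 3.79 to 11.2 CPM with MS4A1 at 0 in every library, and monocyte genes to 2.87 to 4.66 CPM in promyelocytes and 30.4 to 51.4 CPM in granulocytes, nearly all of it CSF1R. All are bulk RNA, in which fewer cells expressing a gene and less RNA per cell cannot be told apart.

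In promyelocytes, TNF-α raised 2 of the 8 members that could be tested, SOCS1 and STAT5A, and lowered none that passed the test. In granulocytes it raised 5 of 9 (STAT3, STAT4, STAT5A, STAT5B and SOCS3) and lowered STAT2. All 5 STAT genes thus passed the test in granulocytes, against 1 of 4 tested in promyelocytes, and STAT5A was the single member that rose in both. Calls are edgeR quasi-likelihood tests with a Benjamini-Hochberg adjusted p under 0.05 over all genes tested. Among all genes tested, 14.8% were called in promyelocytes (8.15% up and 6.65% down) and 49.2% in granulocytes (24.4% up and 24.8% down). The median log2 fold change of the members tested was 0.04 in promyelocytes and 0.22 in granulocytes, against −0.01 over all genes tested in either form.

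STAT5A and STAT5B are closely related proteins that carry signals of myeloid growth factors. STAT5A stood at 10.5, 9.34 and 11.7 CPM in the 3 vehicle libraries of promyelocytes and at 23.0, 22.0 and 23.1 CPM with TNF-α. In granulocytes it stood at 11.5, 11.8 and 12.3 CPM with vehicle and at 79.6, 72.5 and 73.8 CPM with TNF-α. The vehicle libraries of the forms overlapped only at the edge, with the highest promyelocyte at 11.7 CPM and the lowest granulocyte at 11.5 CPM. The TNF-α libraries lay above the vehicle libraries without overlap, those of granulocytes also above those of promyelocytes. Of all genes tested, 13.7% had their TNF-α libraries all above the vehicle libraries in promyelocytes and 28.4% in granulocytes. The increase was 2.19-fold in promyelocytes (log2 fold change 1.13, SE 0.0945, edgeR adjusted p = 2.16e-08) and 6.27-fold in granulocytes (2.65, SE 0.0659, adjusted p = 6.75e-29). It was larger in granulocytes by 1.56 on the log2 scale (SE 0.110, edgeR adjusted p of the interaction = 3.62e-11).

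STAT5B stood at 89.4, 82.7 and 77.8 CPM in vehicle-treated promyelocytes and at 72.6, 77.3 and 83.3 CPM after TNF-α. These libraries overlapped, and the log2 fold change of −0.08 (95% interval −0.21 to 0.06) did not pass the test (edgeR adjusted p = 0.508). In granulocytes STAT5B stood at 71.4, 71.7 and 73.2 CPM with vehicle and at 89.8, 87.5 and 87.8 CPM with TNF-α. Here the groups did not overlap, and the 1.21-fold increase passed the test (log2 fold change 0.28, SE 0.0507, adjusted p = 1.67e-05). The responses of STAT5B in the 2 forms differed by 0.39 (SE 0.0838, adjusted p = 8.89e-04).

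Per kilobase of annotated exon, STAT5A was below STAT5B in all 12 libraries. This length covers all annotated exons (5754 bases for STAT5A and 6447 for STAT5B), while the canonical transcripts have 3770 and 5079 bases. With the transcript lengths every ratio of STAT5A to STAT5B would be higher. The order of the pair in TNF-α treated granulocytes therefore depends on the length chosen. The ratio of STAT5A to STAT5B per kilobase was 0.132, 0.127 and 0.169 in vehicle-treated promyelocytes and 0.355, 0.319 and 0.310 in TNF-α treated promyelocytes. It was 0.180, 0.185 and 0.188 in vehicle-treated granulocytes and 0.993, 0.929 and 0.942 in TNF-α treated granulocytes. After TNF-α, the STAT5 genes thus stood at nearly equal levels per kilobase of annotated exon in granulocytes. The mean ratio was 0.954 ± 0.0341 (SD, n = 3), a value tied to that length.

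STAT4 carries the interleukin-12 signal in T and NK cells. In promyelocytes it was close to the limit of detection, with 1, 4 and 6 read pairs in vehicle libraries and 3, 7 and 2 in TNF-α libraries, and it was removed by the filter on low counts and not tested there. In granulocytes it had 47, 94 and 72 read pairs with vehicle (1.81, 3.11 and 2.41 CPM) and 257, 285 and 260 with TNF-α (11.6, 10.2 and 11.8 CPM). The granulocyte groups did not overlap, and the increase was 4.47-fold (log2 fold change 2.16, SE 0.144, edgeR adjusted p = 1.87e-15). The interaction was 2.05 (95% interval 0.54 to 3.56, adjusted p = 0.0424) and rests on the few promyelocyte reads. It was called in 4 of the 12 fits that left out a library and lost in the other 8. The adjusted p was 0.123 without vehicle-treated promyelocyte 2 and 0.277 without 3, 0.0750 without TNF-α treated promyelocyte 1 and 0.106 without 3, 0.0599 without vehicle-treated granulocyte 1 and 0.0542 without 3, and 0.0554 without TNF-α treated granulocyte 1 and 0.0549 without 3. The difference was largest, at 2.72, without TNF-α treated promyelocyte 2, which had 7 read pairs. The T-cell genes CD3D, CD3E and CD3G summed to 0.978 to 1.42 CPM in promyelocytes, 3.50 to 4.06 CPM in vehicle-treated granulocytes and 2.53 to 3.51 CPM in TNF-α treated granulocytes. The higher sum in granulocytes came from CD3E, at 0.238 ± 0.109 CPM in vehicle-treated promyelocytes and 3.66 ± 0.268 CPM in vehicle-treated granulocytes (SD, n = 3). CD3D was lower in granulocytes, with 1, 6 and 4 read pairs against 28, 26 and 23 in the same vehicle groups. CD3G had at most 3 read pairs in any granulocyte library and none in promyelocytes, and the part of such genes in the STAT4 result was not tested.

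STAT3, the factor of interleukin-6, interleukin-10 and G-CSF signaling, had the highest mean level per kilobase of exon of the members in all groups but vehicle-treated promyelocytes. In TNF-α treated promyelocytes, STAT3 (12.22 CPM per kilobase) overlapped STAT5B (12.05). It stood at 112, 105 and 102 CPM in vehicle-treated promyelocytes and at 109.8, 103 and 111 CPM after TNF-α, with overlapping groups (log2 fold change 0.04, 95% interval −0.09 to 0.16, edgeR adjusted p = 0.732). In granulocytes it rose 1.17-fold, from 161, 171 and 180.3 CPM to 207, 196 and 202 CPM (log2 fold change 0.22, SE 0.0501, adjusted p = 2.92e-04). All 3 TNF-α treated granulocyte libraries were above all 3 vehicle libraries. The difference between the responses, 0.23, was just past the threshold (adjusted p = 0.0370). It was lost in each of the 5 other fits of the 12 libraries (adjusted p 0.0976 to 0.328) and held in 5 of the 12 fits that left out a library. The adjusted p was 0.0989 without vehicle-treated promyelocyte 1 and 0.0580 without 2, 0.0999 without TNF-α treated promyelocyte 2, 0.157 without vehicle-treated granulocyte 1 and 0.0714 without 2, and 0.0908 without TNF-α treated granulocyte 1 and 0.0640 without 3.

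STAT2, a factor of the type I interferon response, moved the other way. In vehicle-treated granulocytes it stood at 99.6, 98.0 and 99.5 CPM, and after TNF-α at 66.6, 70.5 and 69.4 CPM. The groups did not overlap, with the TNF-α libraries all lower, as they were for 26.7% of all genes tested, and the level was 1.45-fold lower (log2 fold change −0.54, SE 0.0512, edgeR adjusted p = 2.86e-11). In promyelocytes STAT2 stood at 25.5, 26.9 and 25.7 CPM with vehicle and at 22.7, 23.2 and 24.7 CPM with TNF-α. The TNF-α libraries were all lower there too, as they were for 17.1% of all genes tested, and the log2 fold change of −0.12 (95% interval −0.28 to 0.03) did not pass the test (adjusted p = 0.323). The decrease in granulocytes was larger by 0.38 on the log2 scale (interaction −0.38, SE 0.0808, adjusted p = 8.65e-04).

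**Figure D1:**
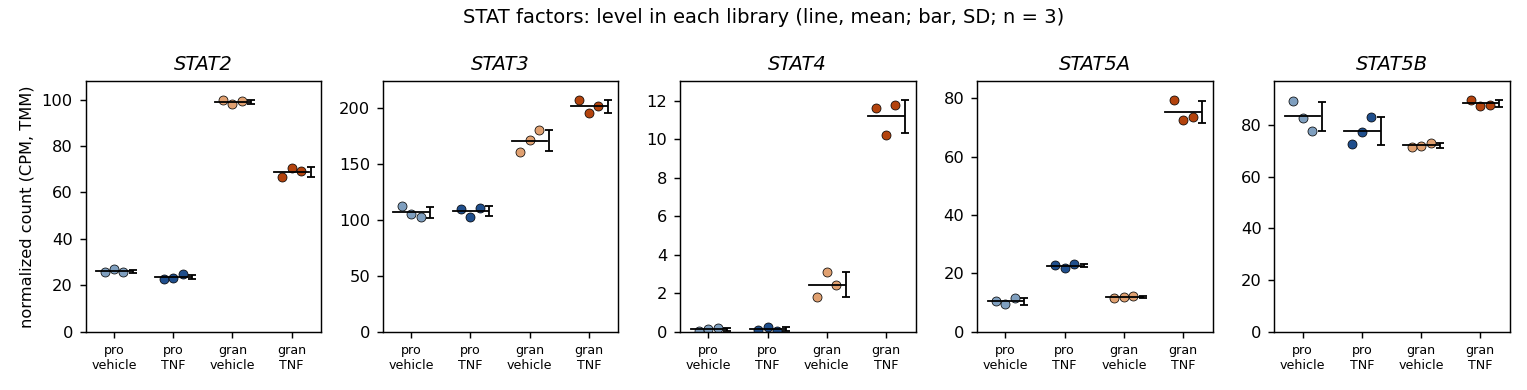
Level of the 5 STAT genes in each of the 12 libraries, as normalized counts (y axis, CPM, linear, from 0, own scale per gene) for promyelocytes (pro) and granulocytes (gran) with vehicle or TNF-α (x axis). Points are libraries, horizontal lines are means and bars are the SD of 3 libraries. STAT5A reached 72.5 to 79.6 CPM in TNF-α treated granulocytes against 22.0 to 23.1 CPM in TNF-α treated promyelocytes, and STAT2 is the member whose granulocyte level is lower with TNF-α.

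SOCS1 binds and blocks the JAK kinases and is induced by interferon. In vehicle-treated promyelocytes it had 20, 28 and 18 read pairs (0.654, 1.03 and 0.622 CPM), and with TNF-α 111, 153 and 204 (4.18, 5.47 and 6.43 CPM). Every TNF-α library was above every vehicle library, and the increase was 7.13-fold (log2 fold change 2.83, SE 0.235, edgeR adjusted p = 1.92e-08). Granulocytes showed no such increase: SOCS1 stood at 2.58, 2.75 and 3.12 CPM with vehicle and at 2.85, 3.05 and 2.40 CPM with TNF-α, with overlapping groups (log2 fold change −0.04, 95% interval −0.42 to 0.34, adjusted p = 0.888). The responses differed by −2.83 (SE 0.303, adjusted p = 6.22e-08), the largest difference among the 9 members. The call held in all 12 fits that left out a library, with differences from −3.09 to −2.68. The forms stood in a different order with vehicle and with TNF-α. The SOCS1 level in granulocytes was 3.66 times that in promyelocytes with vehicle and 0.516 times with TNF-α, without overlap of the libraries in either case.

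SOCS3, which acts on receptors of the interleukin-6 family and on the G-CSF receptor, passed the test in granulocytes and not in promyelocytes. In granulocytes it stood at 10.2, 9.17 and 10.6 CPM with vehicle and at 19.4, 16.7 and 15.9 CPM with TNF-α. The groups did not overlap, and the increase was 1.71-fold (log2 fold change 0.78, SE 0.0928, edgeR adjusted p = 6.30e-09). In promyelocytes SOCS3 had 25, 10 and 6 read pairs with vehicle and 19, 13 and 24 with TNF-α. These overlap, and at such counts the log2 fold change of 0.49 has an interval from −0.44 to 1.42 (adjusted p = 0.532), which includes the size seen in granulocytes. Without vehicle-treated promyelocyte 1, which had 25 read pairs, the change was 1.18 (95% interval 0.13 to 2.23, edgeR adjusted p = 0.161). The difference between the responses was 0.34 (95% interval −0.46 to 1.13, adjusted p = 0.587), so a difference was not detectable at this depth. Without the same library it was −0.38 (edgeR adjusted p = 0.569).

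Per kilobase of exon, the ratio of SOCS3 to SOCS1 was 0.560, 0.160 and 0.149 in vehicle-treated promyelocytes and 0.0767, 0.0381 and 0.0527 after TNF-α. In granulocytes it was 1.60 ± 0.152 with vehicle (SD, n = 3) and 3.04, 2.45 and 2.98 with TNF-α. SOCS1 was thus the higher of the pair per kilobase in every promyelocyte library, and SOCS3 in every granulocyte library.

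SOCS2, a regulator of growth hormone signaling, stood at 1.05, 1.25 and 1.31 CPM in vehicle-treated and at 1.43, 1.43 and 0.820 CPM in TNF-α treated promyelocytes. In granulocytes it stood at 1.85, 1.79 and 2.21 CPM with vehicle and at 1.81, 2.08 and 1.36 CPM with TNF-α. The groups overlapped in both forms, with log2 fold changes of 0.04 (95% interval −0.56 to 0.65, edgeR adjusted p = 0.945) and −0.16 (−0.63 to 0.31, adjusted p = 0.600). With 26 to 66 read pairs per library, these intervals are wide.

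CISH, the inhibitor with the 4 TTCNNNGAA matches printed above, stood at 9.51, 8.20 and 7.87 CPM in vehicle-treated promyelocytes and at 7.07, 6.18 and 6.90 CPM after TNF-α. All 3 TNF-α libraries were lower, and the log2 fold change of −0.32 (SE 0.120) missed the threshold (edgeR adjusted p = 0.0825). It passed when all 12 libraries were fitted together (log2 fold change −0.34, adjusted p = 0.0450). In granulocytes CISH stood at 5.43, 4.90 and 5.80 CPM with vehicle and at 5.06, 5.66 and 4.88 CPM with TNF-α, with overlapping groups (log2 fold change −0.06, 95% interval −0.33 to 0.22, adjusted p = 0.765). The difference between the responses of CISH was 0.30 (95% interval −0.06 to 0.66, adjusted p = 0.229).

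**Figure D2:**
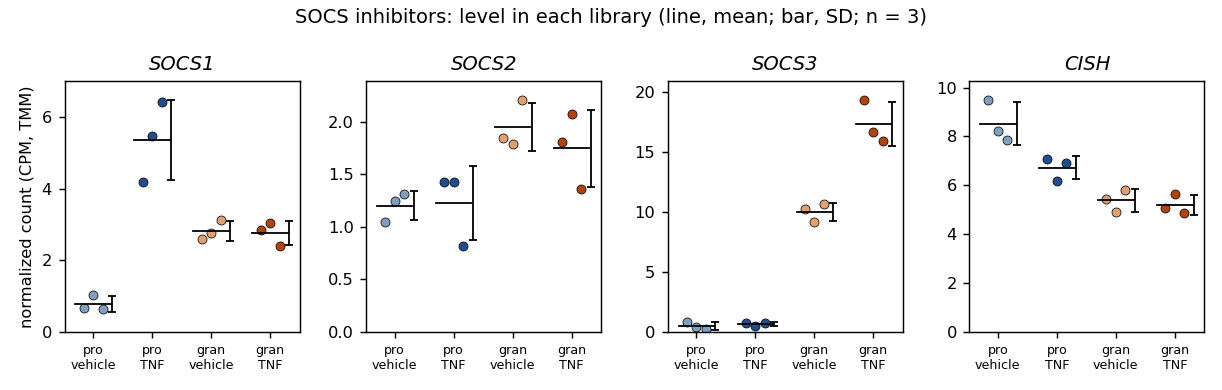
Level of the 4 SOCS genes in each of the 12 libraries, as normalized counts (y axis, CPM, linear, from 0, own scale per gene) for promyelocytes (pro) and granulocytes (gran) with vehicle or TNF-α (x axis). Points are libraries, lines are means and bars are the SD of 3 libraries. SOCS1 is highest in TNF-α treated promyelocytes (4.18 to 6.43 CPM) and SOCS3 in TNF-α treated granulocytes (15.9 to 19.4 CPM).

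The response to TNF-α thus differed between the forms, each treated in its own experiment, for 6 of the 9 members in the fit of all 12 libraries. STAT3, STAT4, STAT5A and STAT5B responded more positively in granulocytes, and STAT2 and SOCS1 more negatively. Of all 18124 genes tested for this difference, 24.0% were called, 14.1% as more positive and 9.88% as more negative. This split depends on the scaling: 2561 genes were more positive and 1790 more negative with TMM, against 2128 and 2266 with DESeq2 size factors in the same fit. With those size factors 5 members were called, STAT3 being lost. The 3 members not called, SOCS2, SOCS3 and CISH, had the intervals given above or, for SOCS2, −0.92 to 0.59 around −0.17 (edgeR adjusted p = 0.797).

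**Figure D3:**
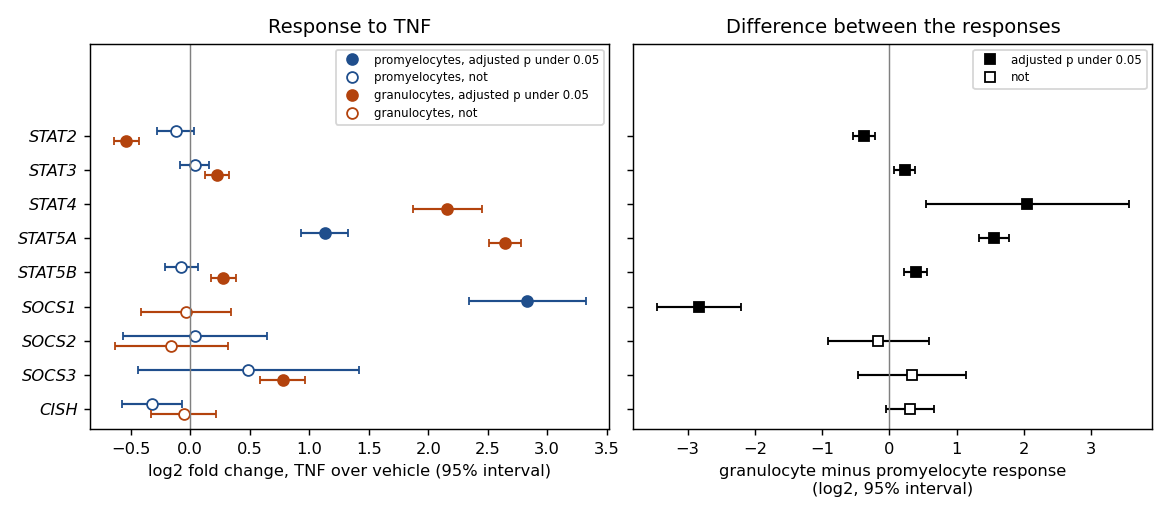
Left, log2 fold change of TNF-α over vehicle for each member in promyelocytes (blue) and granulocytes (red-brown). Right, granulocyte response minus promyelocyte response. Bars are 95% intervals, filled symbols have an adjusted p under 0.05 and open symbols do not. STAT4 has no promyelocyte point because it was not tested there, SOCS1 lies farthest to the left in the right panel (−2.83), and the wide STAT4 interval (0.54 to 3.56) rests on few promyelocyte reads.

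Levels between the forms are given as a description, with no test, since the experiments were separate. With vehicle, the libraries of granulocytes and promyelocytes did not overlap for 8 of the 9 members, against 74.4% of all genes in the 12-library fit (37.3% higher and 37.1% lower in granulocytes). STAT2 was 3.80 times, STAT3 1.60 times, SOCS1 3.66 times and SOCS2 1.62 times as high in granulocytes. The largest ratios were those of genes nearly silent in promyelocytes. STAT4 was 19.0 times as high (95% counting interval 10.4 to 38.6) and SOCS3 21.6 times (15.8 to 30.3). STAT5B and CISH were lower in granulocytes, at 0.866 and 0.630 times the promyelocyte level. STAT5A was the member that overlapped, at 1.13 times (95% counting interval 1.03 to 1.23). That overlap depends on the scaling: with total assigned counts in place of TMM, all 9 members were without overlap. With TNF-α, STAT5A in granulocytes was 3.32 times the promyelocyte level and STAT5B 1.14 times, both without overlap. Counting intervals cover counting error only.

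Ordered by level per kilobase, STAT5B (12.9 CPM per kilobase) and STAT3 (12.1) led in vehicle-treated promyelocytes with overlapping libraries, followed by STAT2 (4.26), by STAT5A (1.83) and CISH (1.67), which overlapped, and by SOCS1 (0.627). SOCS2 (0.178) and SOCS3 (0.170) overlapped near the bottom, and STAT4 (0.0304) was last. With TNF-α, SOCS1 (4.37) moved up to the level of STAT5A (3.94) and STAT2 (3.85), with overlap between neighbors. In vehicle-treated granulocytes STAT3 (19.4), STAT2 (16.2) and STAT5B (11.2) were the highest, none overlapping the next, and SOCS3 (3.66) was the leading inhibitor. In TNF-α treated granulocytes STAT3 (22.9) was followed by STAT5B (13.7) and STAT5A (13.1), which overlapped, then by STAT2 (11.3) and SOCS3 (6.33), with STAT4 (2.63) and SOCS1 (2.26) overlapping behind them. SOCS2 was the lowest member in both granulocyte groups, at 0.288 and 0.258 CPM per kilobase. These orders depend on the length used, that of all annotated exons, which for CISH (5112 bases) cover nearly the whole gene.

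**Figure D4:**
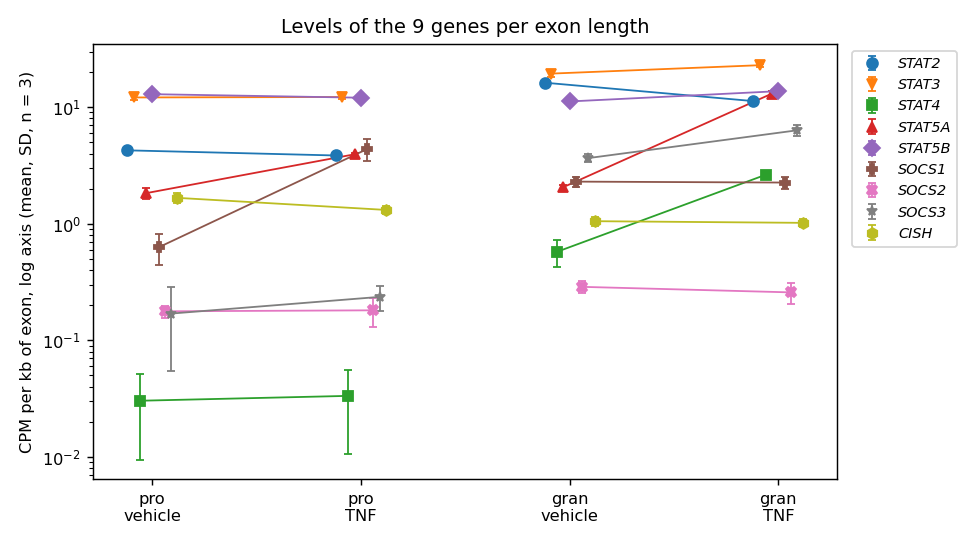
Mean level of each of the 9 members per kilobase of exon (y axis, CPM per kilobase, logarithmic) in the 4 groups (x axis). Bars are the SD of 3 libraries, and lines join vehicle to TNF-α within a form. The STAT5A line rises from 2.06 to 13.1 in granulocytes to lie just below STAT5B at 13.7, an order that depends on the exon length used. The SOCS1 line rises in promyelocytes only.

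The other genes of the pathway were read from the same fits. Of 106 genes on 8 lists, 105 were in the table. In promyelocytes 67 were tested, of which 30 rose and 9 fell, and in granulocytes 70 were tested, of which 35 rose and 15 fell. The lists were chosen with earlier results of these data known, and the percentages over all genes given above (14.8% and 49.2% called) are the background for each count.

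Among the JAK kinases, all 3 tested rose in promyelocytes, and 2 of 3 in granulocytes. JAK2, the kinase of the erythropoietin, GM-CSF and growth hormone receptors, rose 1.92-fold in promyelocytes, from 29.6 ± 1.76 to 55.8 ± 2.76 CPM (SD, n = 3, edgeR adjusted p = 4.15e-09), while in granulocytes it was at 114 ± 8.20 and 121 ± 3.85 CPM (adjusted p = 0.251). TYK2, which serves interferon and interleukin-12 receptors, rose by 0.79 and 0.71 on the log2 scale, and JAK1 by 0.24 and 0.22. JAK3 had at most 4 read pairs in any library and was not tested.

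STAT6, the interleukin-4 factor, fell by 0.15 on the log2 scale in granulocytes and had a log2 fold change of 0.13 in promyelocytes that did not pass the test (edgeR adjusted p = 0.154). IRF9, which binds DNA together with STAT2 after interferon, passed in neither form, with log2 fold changes of 0.43 (adjusted p = 0.185) and 0.03 (adjusted p = 0.852). In granulocytes IRF9 stood at 7.95 ± 1.10 CPM with vehicle and 8.16 ± 0.644 CPM with TNF-α (SD, n = 3).

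Of the other SOCS genes, SOCS4 rose by 0.22 and 0.17 and SOCS7 fell by 0.23 and 0.32 on the log2 scale in promyelocytes and granulocytes, respectively. SOCS5 did not pass the test in either form (log2 fold changes 0.07 and 0.05), and SOCS6 had at most 5 read pairs in any library and was not tested. The promyelocyte call of SOCS4 was lost without vehicle-treated promyelocyte 1 (edgeR adjusted p = 0.125) or TNF-α treated promyelocyte 2 (adjusted p = 0.0593). That of SOCS7 was lost without vehicle-treated promyelocyte 2 (edgeR adjusted p = 0.103) or 3 (0.0770) or TNF-α treated promyelocyte 2 (0.137). SOCS2-AS1, SOCS3-DT and STAT4-AS1, transcribed against or away from members, had at most 12 read pairs in any library and were not tested, and SOCS1-DT is the gene without a row.

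Among 14 PIAS proteins, phosphatases and adaptors, 5 rose and 1 fell in promyelocytes, and 5 rose and 3 fell in granulocytes. SH2B3, an adaptor that restrains JAK2, rose 1.86-fold and 2.34-fold. The phosphatase PTPN6 (SHP-1) fell by 0.20 on the log2 scale in promyelocytes and by 0.68 in granulocytes. The promyelocyte call was lost without vehicle-treated promyelocyte 1 (edgeR adjusted p = 0.136) or 2 (0.104) or TNF-α treated promyelocyte 1 (0.0805) or 2 (0.134). The phosphatase PTPRC (CD45) rose by 0.32 in promyelocytes and did not pass the test in granulocytes (log2 fold change −0.01). The phosphatase PTPN1 rose in both forms, by 0.30 in granulocytes and by 0.27 in promyelocytes. PIAS2 fell by 0.25 in granulocytes, a call lost without vehicle-treated granulocyte 1 (adjusted p = 0.0657).

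Of the receptor chains, 10 of 23 tested rose and 4 fell in promyelocytes, and 11 of 25 rose and 9 fell in granulocytes. The largest increases in promyelocytes were those of IL10RA and IFNGR2, 3.30-fold and 2.42-fold, and both also rose in granulocytes, 4.06-fold and 4.27-fold. In granulocytes the largest were those of IL27RA and IL2RA, by 3.35 and 3.16 on the log2 scale. The IL2RA change was 3.87 without vehicle-treated granulocyte 2. IL27RA also rose in promyelocytes, 2.14-fold, and IL2RA was not tested there. The erythropoietin receptor EPOR fell by 0.90 and 1.30 on the log2 scale in promyelocytes and granulocytes, and the interleukin-6 receptor IL6R by 0.63 and 1.33. Only 5 of 25 ligands were tested in each form, of which 2 rose in promyelocytes and 4 in granulocytes. IL12B, a subunit of interleukin-12, rose from 0.147 ± 0.0650 to 10.1 ± 1.04 CPM in promyelocytes and from 0.295 ± 0.0800 to 85.1 ± 8.07 CPM in granulocytes. IL12A and IL27, also on the list, were not tested in promyelocytes. EBI3, a subunit of interleukin-27, had 0, 1 and 3 read pairs in vehicle-treated and 188, 186 and 217 in TNF-α treated promyelocytes, and 3, 4 and 2 against 871, 1038 and 924 in granulocytes.

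The list of 20 genes known to respond to STATs held 9 that rose and 3 that fell of 18 tested in promyelocytes, and 12 that rose and 1 that fell of 18 tested in granulocytes. Several of its members, ICAM1 and BCL3 among them, are also known NF-κB targets. ICAM1, an adhesion molecule, and BCL3, an IκB protein, rose by 6.22 and 3.52 on the log2 scale in promyelocytes. In granulocytes the largest increases were those of BCL3 (5.09) and GBP1 (2.60), an interferon-induced GTPase. MYC and BCL6 fell in promyelocytes by 1.21 and 1.13, and the kinase gene PIM1 fell in granulocytes by 0.19 on the log2 scale.

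**Figure D5:**
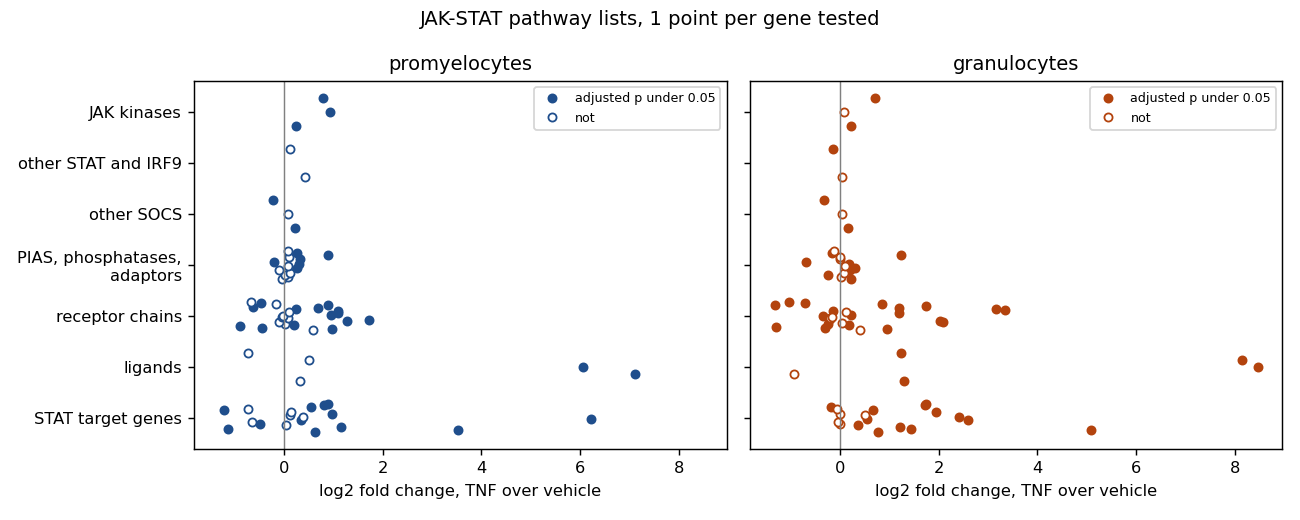
Log2 fold change of TNF-α over vehicle (x axis) for every tested gene of the pathway lists (rows) in promyelocytes (left) and granulocytes (right). Each point is a gene, filled where the adjusted p is under 0.05. Most lists hold changes in both directions, and the points farthest to the right are the ligands EBI3 and IL12B and the target genes ICAM1 (promyelocytes, 6.22) and BCL3 (granulocytes, 5.09).

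For the 4 inhibitors, the genes with the most similar pattern over the 12 libraries were sought among 11801 or 11802 genes by Pearson correlation of log2 CPM. SOCS3 was most like JAG2 (r = 0.999), HLA-H (0.994) and ARPC1B (0.993), and CISH most like VAT1 (0.977), COX10 (0.967) and SAC3D1 (0.964). SOCS1 was most like ALG2 (0.932), TRIM13 (0.930) and INTS6L (0.883), and SOCS2 most like CAMK1D (0.926), NUTM2A (0.916) and a gene known by identifier only (0.928). The 12 points fall into 4 groups and share their libraries, so that these values describe the group pattern. HLA-H and NUTM2A have near-identical relatives in the genome, so their counts are uncertain.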

How the data were processed

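Total RNA depleted of ribosomal RNA was sequenced as read pairs in 12 libraries. According to the submitters' notes and the file header, the authors aligned with STAR 2.5.3a to hg38 and counted with featureCounts 1.5.2 (primary alignments, both ends mapped, not chimeric, reverse strand). The deposited values are raw counts per gene with no normalization. Symbols came from the reference annotation (57532 of 58288 genes).

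Counts of promyelocytes and of granulocytes were modelled separately in edgeR 4.0.16 (R 4.3.3, 6 libraries each, TMM, filterByExpr with a minimum count of 10 and total of 15, quasi-likelihood test, Benjamini-Hochberg threshold 0.05). The difference between responses was tested as an interaction with all 12 libraries in the model. The SE is the size of the log2 fold change divided by the square root of F. CPM use the TMM library sizes of the 12-library fit, and levels per kilobase divide them by the combined length of all annotated exons of the gene. Intervals are 95%, and counting intervals and the floor of 3 counts cover counting error only. The scripts were tested on simulated data.

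The 9 genes, the pathway lists and the marker lists were chosen with earlier results of these data known. Named with values are the 9 members, all genes of the short JAK, STAT, SOCS and antisense lists (1 gene, left out of the lists and their counts, is not reported here), and, of the other lists, at most the 2 largest increases and decreases past the test in each form. The genes most like an inhibitor are the 3 with the highest correlation over the 12 libraries (mean log2 CPM of at least 1, prior count 2).

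Alternatives were DESeq2 size factors, no filter, DESeq2 1.42.0, a block for the replicate number, both forms in a joint fit, each library left out, and, added after seeing the data, removal of trends with GC content and length. Levels between the forms were also scaled by DESeq2 size factors and by total assigned counts. Plots were drawn with matplotlib 3.10.9.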

Additional observations from a re-analysis of the deposited data

Results flagged for a closer look

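The response to TNF-α differed between granulocytes and promyelocytes, by the interaction test over all 12 libraries, for 6 of the 9 members. The share among all 18124 genes tested was 24.0%. Cell form and experiment cannot be told apart in this difference. The granulocyte minus promyelocyte difference was −0.38 for STAT2, 0.23 for STAT3, 2.05 for STAT4, 1.56 for STAT5A, 0.39 for STAT5B and −2.83 for SOCS1 (log2). The STAT3 difference was called in 0 of 5 other fits of the 12 libraries and in 5 of the 12 fits that left out a library, and the STAT4 difference in 4 of 5 and 4 of 12. The other 4 were called in all of these fits. Of the JAK kinases, STAT6 and IRF9, JAK2 differed by −0.83 (edgeR adjusted p = 6.25e-08) and STAT6 by −0.24 (adjusted p = 0.0167).

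The JAK2 difference held in all 12 fits that left out a library. The STAT6 difference was lost without vehicle-treated promyelocyte 3 (edgeR adjusted p = 0.0588) and with a block for replicate number (adjusted p = 0.0676).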

How the results depend on the processing

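The count of members called was 2 in promyelocytes and 6 in granulocytes whichever library was left out, 4 to 6 for the difference between responses, and 8 to 9 for vehicle levels without overlap. For the pathway lists the counts were 33 to 38, 47 to 52 and 27 to 36. Over all genes they were 1598 to 2475 in promyelocytes, 7373 to 8010 in granulocytes and 3604 to 4573 for the difference. The lowest, 1598 against 2405 with all libraries, was that without vehicle-treated promyelocyte 2, and the cause was not tested. With a block for replicate number, 2, 6 and 4 members were called, and the STAT3 (adjusted p = 0.0976) and STAT4 (0.0552) differences were lost, as were the STAT6 difference (0.0676) and the promyelocyte calls of PTPN6 (0.106), SOCS4 (0.0661) and SOCS7 (0.0566). Correlations of the deviations of same-numbered vehicle and TNF-α libraries were −0.146 to −0.0129, and those of differently numbered ones −0.0976 to 0.149. With 3 libraries per group these values cannot settle whether the numbers mark pairs, so the blocked fit is given beside the main fit. DESeq2 gave no adjusted p for SOCS3 in promyelocytes. Over the other settings, 139 of 146 member values kept their direction and side of the threshold. The exceptions were STAT3 in 5 settings, STAT4 under the block and CISH in promyelocytes in the joint fit. No called value of the members or named pathway genes changed direction under these settings. Among the pathway genes named above, STAT6 in promyelocytes (0.18), JAK2 in granulocytes (0.12) and the TYK2 difference (−0.30) passed only with GC content and length trends removed. Calls of some pathway genes not named also depended on the setting. Removal of these trends lost the promyelocyte calls of SOCS4 (adjusted p = 0.180) and PTPN6 (0.0841). STAT4 and SOCS3 in promyelocytes, with at most 7 and 25 read pairs, are limited by depth.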
